A study of Mus musculus with 12 samples.

Results

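The core circadian clock was examined in mouse tibialis anterior (TA) muscle through the mRNAs of 10 genes, taken by name from the 27179 genes listed. The positive arm was represented by *Arntl* (also called *Bmal1*), *Clock* and *Npas2*, and the negative arm by *Per1*, *Per2*, *Per3*, *Cry1*, *Cry2*, *Nr1d1* and *Nr1d2*. All 10 passed the filter on low counts and were among the 15502 genes tested. The experiment compared 12 TA muscles of 6 male wild-type C57BL/6N mice, obtained as young adults. In each mouse, the TA of 1 leg was electroporated with empty plasmid (Control muscles) and the TA of the other leg with plasmid carrying full-length human *FRAIL1*, a long noncoding RNA, under the CMV promoter (*FRAIL1* muscles). Each muscle received 10 μg of plasmid and was taken on day 7, so injection, electroporation and a plasmid were shared by both groups. The comparison addresses which mRNAs differ when *FRAIL1* is forced into muscle fibers. The hour of the day at which muscles were taken is not given in the sources used here, and each muscle is a single time point, so levels and not rhythms were measured.

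The circadian clock is a transcriptional feedback loop that runs in nearly every cell, including skeletal muscle fibers. BMAL1, the product of *Arntl*, pairs with CLOCK or its paralog NPAS2, and the pair binds E-boxes to switch on the *Per*, *Cry* and *Nr1d* genes. PER and CRY proteins return to the nucleus and inhibit the pair, while the REV-ERB nuclear receptors made from *Nr1d1* and *Nr1d2* repress *Arntl*, *Npas2* and *Clock* through elements that they share with the ROR activators. In skeletal muscle the clock is known for its hand in glucose uptake, fuel choice and sarcomere gene expression.

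Promoter windows from 250 bases before to 50 bases after a RefSeq start site (GRCm38.p6) were found for 9 of the 10 genes, in 13 windows, and *Per2* had no entry. These were searched on both strands for the letters of the elements that link the arms. The E-box CACGTG lay in windows of *Per1* and *Cry1* and in 7.15% of all 32851 windows. The variant E-box CACGTT lay in windows of *Cry1*, *Cry2* and *Nr1d1* and in 4.685% of all windows. The D-box, written TTACGTAA or TTATGTAA, lay in *Per3* and in 1.056% of all windows. The core of the ROR and REV-ERB element, TAGGTCA or TGGGTCA, lay in *Arntl* and in 6.453% of all windows, and the CRE TGACGTCA lay in none of the 13 windows against 1.79% of all. These matches are descriptions of the sequence and not measured binding. Stretches around 6 of the matches are shown because they are the 1 match of *Arntl*, the gene called in the comparison below, that of *Nr1d1*, the gene with the next smallest p-value, and examples of E-boxes and D-boxes in the PER and CRY genes. Capitals mark the match, read 5′ to 3′ on the strand of the gene, where AACGTG is the reverse complement of CACGTT.
*Arntl* ROR and REV-ERB element core, chr7:113207530-113207558, plus strand, 30 bases after the start: aaggcagaaagTAGGTCAgggacggaggt
*Nr1d1* variant E-box, chr11:98775389-98775416, minus strand, 28 bases before the start: gcacagatctcAACGTGccggctgctgg
*Per1* E-box, chr11:69098772-69098799, plus strand, 166 bases before the start: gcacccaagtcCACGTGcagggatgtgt
*Cry1* E-box, chr10:85185098-85185125, minus strand, 60 bases before the start: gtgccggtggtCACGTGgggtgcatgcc
*Per3* D-box, chr4:151044852-151044881, minus strand, 205 bases before the start: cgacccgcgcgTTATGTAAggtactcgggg
*Per3* D-box, chr4:151044805-151044834, minus strand, 158 bases before the start: cccgcccgcggTTATGTAAcccccgccgtg

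Total counts per muscle ranged from 45018389 to 59309210 in Control and from 44848322 to 60527385 in *FRAIL1* muscles. Levels are given as CPM, which sets each count relative to the size of its library after scaling by edgeR's TMM factors. The TMM factors of Control muscles were 0.935 to 0.983 and those of *FRAIL1* muscles 0.965 to 1.19, the highest being *FRAIL1* muscle 5. *FRAIL1* itself is not among the mouse genes counted, so the labels could not be checked on it. Muscle identity could be checked: the summed level of 7 fiber markers was 124646 to 148031 CPM in Control and 96210.6 to 131826 CPM in *FRAIL1* muscles. *FRAIL1* muscle 5 stood apart, with the lowest fiber sum and the highest sums of the fibroblast, regenerating fiber and denervated fiber markers, and values without it are given beside the clock and pathway genes whose call it changes.

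Of the 10 clock genes, 1 was lower in *FRAIL1* than in Control muscles past an adjusted p of 0.05 in edgeR's quasi-likelihood test, and 0 were higher. The gene that fell was *Arntl*, and the share of members called was 10%. Over all 15502 genes tested 6.28% were called, 1.85% lower and 4.43% higher, so 1 of 10 is near the background and is no result about the clock genes as a group. Fold changes were below 0 on the log2 scale in 6 members and above 0 in 4, with a median of -0.09 against 0.0096 over all genes. At an unadjusted p under 0.05, 2 members passed (20%), against 27.7% of all genes. No member had groups that did not overlap, against 4.88% of all genes. These are counts from whole muscle, in which fewer cells of a type and less RNA per cell cannot be told apart. The fit had no term for the mouse, although each mouse gave a muscle to both groups, because the labels do not tie replicate numbers to mice. With a term for the replicate number, edgeR called 2186 of the 15502 genes. Of the clock genes it called 2 lower, *Arntl* (edgeR adjusted p = 0.0105) and *Nr1d1* (edgeR adjusted p = 0.0383). The plots of CPM by muscle and of fold change show the members in full.

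**Figure D1:**
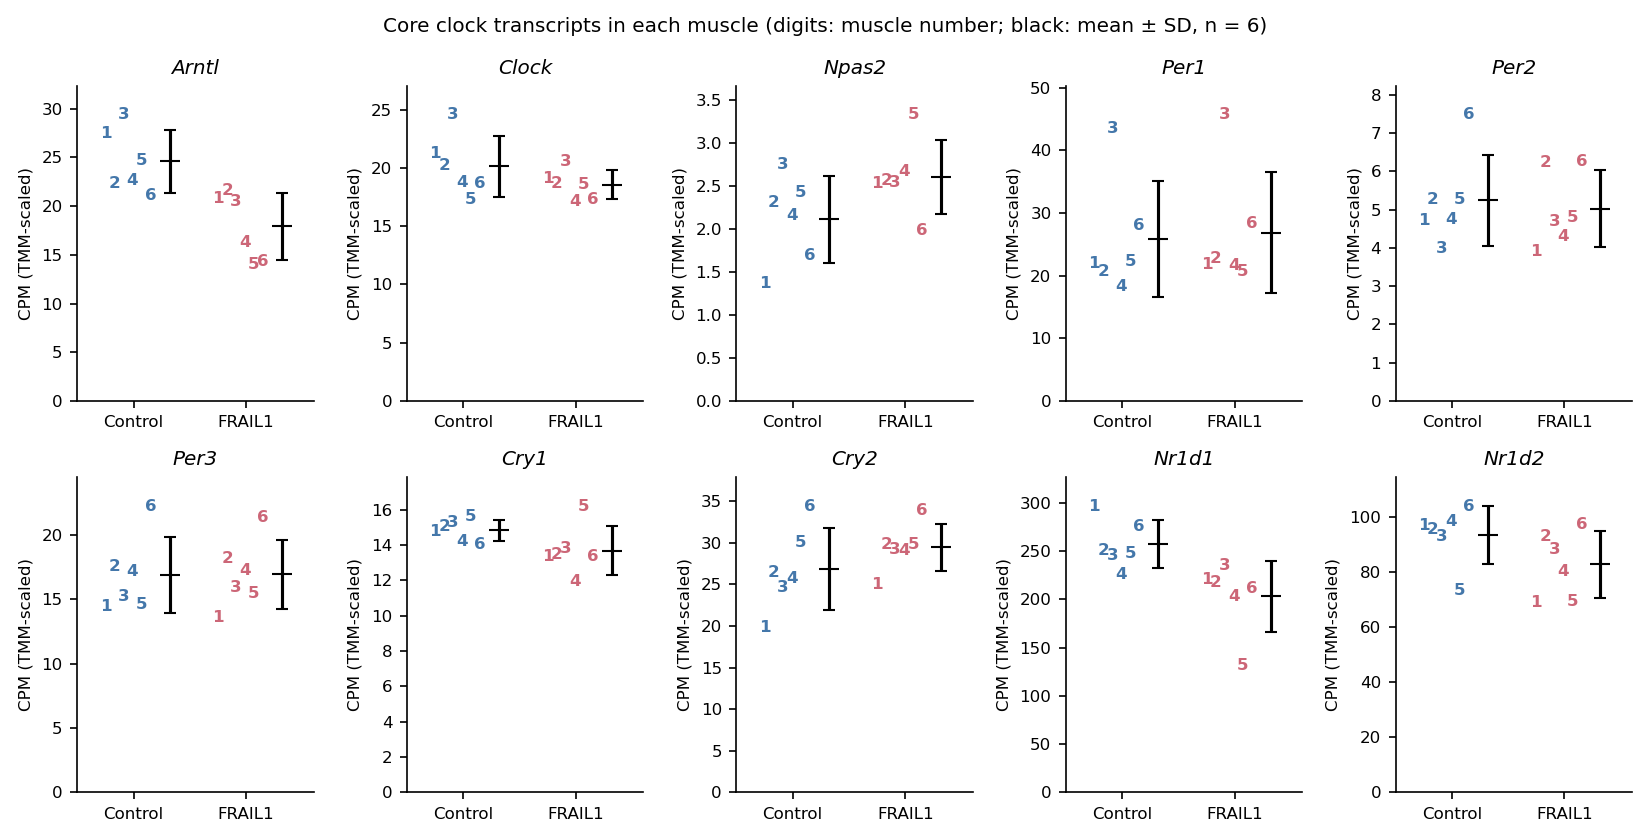
CPM of each clock gene (vertical axes, from 0) in the 12 muscles, each drawn as its muscle number (blue Control, red FRAIL1), with the group mean ± SD in black (n = 6). *Arntl*, *Cry1* and *Nr1d1* have 5 of 6 FRAIL1 numbers below every Control number, and muscle 3 is the highest of both groups in *Per1*.

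**Figure D2:**
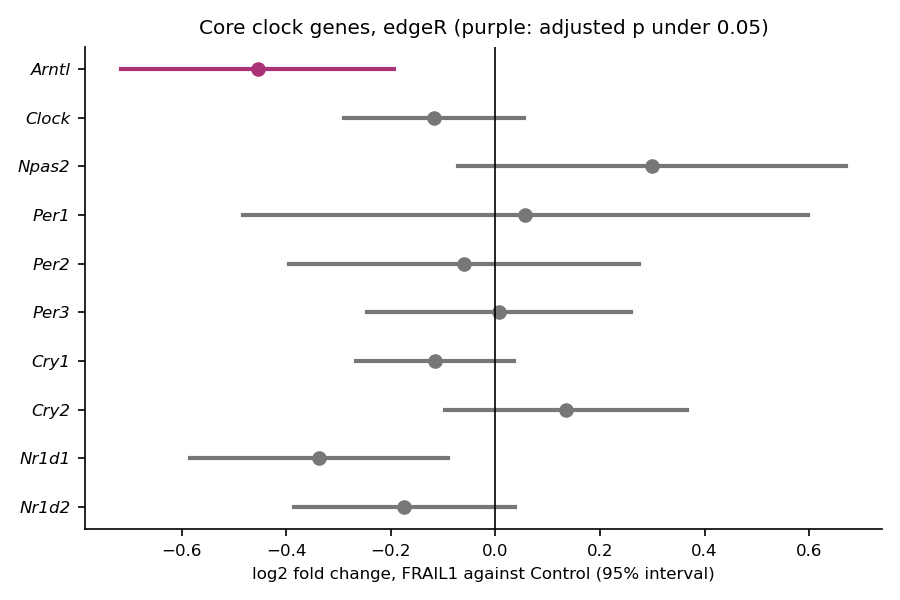
Log2 fold change of FRAIL1 over Control muscles (horizontal axis) for the 10 clock genes, points with bars for the 95% interval from edgeR's quasi-likelihood fit (n = 6 muscles in each group), purple where adjusted p was under 0.05. The intervals of *Arntl* and *Nr1d1* lie below 0, and the other 8 include 0.

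The genes differed far more from each other than between groups. Per kilobase of exon, *Nr1d1* was the most abundant clock mRNA in Control muscles, at 83.5 ± 8.14 CPM per kb (SD, n = 6). *Nr1d2* followed at 17.3 ± 1.95 CPM per kb. Below a gap came *Per1* at 4.58 ± 1.64, *Cry1* at 4.44 ± 0.182, *Cry2* at 4.25 ± 0.786 and *Arntl* at 3.27 ± 0.433 CPM per kb. The ranges of *Per1*, *Cry1* and *Cry2* overlapped, as did those of *Cry2* and *Arntl*, so this order is not set beyond the spread between muscles, although *Cry1* and *Arntl* did not overlap. *Per3* stood at 1.75 ± 0.306 and *Clock* at 1.47 ± 0.188 CPM per kb, with overlapping ranges, and *Per2* stood at 0.895 ± 0.204 CPM per kb, its highest Control muscle just above the lowest of *Clock*. *Npas2* was the least abundant, at 0.441 ± 0.106 CPM per kb. The REV-ERB mRNAs of the negative arm were thus the most abundant members and *Npas2* of the positive arm the least.

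In the positive arm, *Arntl* (Gene ID 11865, chr7:113178471-113314126) encodes BMAL1, the partner that both CLOCK and NPAS2 need. Its lowest, median and highest levels were 21.0, 23.6 and 29.4 CPM in Control and 14.0, 18.4 and 21.6 CPM in *FRAIL1* muscles. The groups overlapped by a single muscle, since *FRAIL1* muscle 2 was above Control muscle 6 and the other 5 *FRAIL1* muscles were below every Control muscle. The mean fell from 24.6 ± 3.25 to 17.9 ± 3.46 CPM (SD, n = 6 each), a fold of 0.730 and a log2 fold change of -0.45 (SE 0.122, 95% interval -0.72 to -0.19, edgeR adjusted p = 0.0429). The ROR and REV-ERB element core shown above lies in its promoter window. The call of *Arntl* was close to the threshold. With 1 muscle left out at a time it was kept without Control 6, *FRAIL1* 2 or *FRAIL1* 3 and lost in the other 9 fits, where edgeR adjusted p reached 0.0913 without Control 1 and the log2 fold change without *FRAIL1* 5 was -0.39 (edgeR adjusted p = 0.0612).

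*Clock* (Gene ID 12753, chr5:76209868-76305603) encodes the main partner of BMAL1, a transcription factor that also carries acetyltransferase activity. It ran from 17.3 through a median of 19.5 to 24.6 CPM in Control and from 17.1 through 18.6 to 20.5 CPM in *FRAIL1* muscles. The groups overlapped, though Control muscles 1 and 3 were above every *FRAIL1* muscle, and Control muscle 3 was the highest. The log2 fold change was -0.12 (SE 0.0811, 95% interval -0.29 to 0.055, edgeR adjusted p = 0.365). *Npas2* (Gene ID 18143, chr1:39193702-39363240), the paralog that can stand in for CLOCK, was at the low end of detection for this group, with 67 to 178 counts per muscle. It ran from 1.36 through 2.23 to 2.75 CPM in Control and from 1.98 through 2.55 to 3.33 CPM in *FRAIL1* muscles, the highest being *FRAIL1* muscle 5. The groups overlapped, and the log2 fold change was 0.30 (SE 0.174, 95% interval -0.072 to 0.67, edgeR adjusted p = 0.278). The 3 genes of the positive arm therefore did not share a sign, and only *Arntl* passed the test.

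In the negative arm, the REV-ERB receptors had fold changes below 0 in both genes. *Nr1d1* (Gene ID 217166, chr11:98767932-98775377) encodes REV-ERBα, a heme-binding repressor. Its lowest, median and highest levels were 226, 249 and 297 CPM in Control and 132, 215 and 235 CPM in *FRAIL1* muscles. *FRAIL1* muscle 5 was far below the rest, *FRAIL1* muscle 3 was the only one inside the Control range, and the other 4 lay in between. The means were 257 ± 25.1 and 203 ± 36.8 CPM (SD, n = 6 each), a fold of 0.791, with a log2 fold change of -0.34 (SE 0.116, 95% interval -0.59 to -0.091). This did not pass the test over all genes (unadjusted p = 0.0107, edgeR adjusted p = 0.0821). Without *FRAIL1* muscle 5 the difference was smaller, at -0.24, but edgeR adjusted p was 0.0474, without *FRAIL1* muscle 3 it was 0.0473, and over the 24 alternative settings adjusted p ranged from 0.0033 to 0.159. *Nr1d1* shares 8.55% of its exon length with *Thra*, the thyroid hormone receptor gene on the opposite strand, and the strand setting of the counting is not given in the sources used here.

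*Nr1d2* (Gene ID 353187, chr14:18204056-18239106) encodes REV-ERBβ, which overlaps in function with REV-ERBα. Its levels were 73.2, 96.1 and 104 CPM at the lowest, median and highest in Control and 68.9, 84.2 and 97.2 CPM in *FRAIL1* muscles. The groups overlapped, with Control muscle 5 and *FRAIL1* muscles 1 and 5 at the low end. The log2 fold change was -0.17 (SE 0.0994, 95% interval -0.39 to 0.037, edgeR adjusted p = 0.267).

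The PER genes encode the scaffold on which the repressor complex is built and kinases mark it for decay. *Per1* (Gene ID 18626, chr11:69095108-69109965) also responds within hours to glucocorticoids and other acute signals. It ran from 18.2 through 22.1 to 43.5 CPM in Control and from 20.7 through 22.2 to 45.7 CPM in *FRAIL1* muscles. Muscle 3 was the highest of both groups by a wide margin, and the other muscles interleaved. The log2 fold change was 0.057 with a wide 95% interval of -0.48 to 0.60 (SE 0.248, edgeR adjusted p = 0.909), and it moved to 0.27 without Control muscle 3 and to -0.16 without *FRAIL1* muscle 3.

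*Per2* (Gene ID 18627, chr1:91415977-91459351), the paralog most tied to the period of the cycle, ran from 3.97 through 5.01 to 7.48 CPM in Control and from 3.89 through 4.74 to 6.26 CPM in *FRAIL1* muscles. *Per3* (Gene ID 18628, chr4:150997018-151044707), the paralog least needed for rhythm, ran from 14.4 through 16.2 to 22.2 CPM and from 13.5 through 16.6 to 21.3 CPM. Both genes had their highest level in muscle 6 of each group, and their groups overlapped almost fully. The log2 fold change was -0.06 for *Per2* (SE 0.157, 95% interval -0.39 to 0.27, edgeR adjusted p = 0.837). That of *Per3* was 0.0068 (SE 0.119, 95% interval -0.25 to 0.26, edgeR adjusted p = 0.979). In this fit, which has no term for the replicate number, the intervals of *Per1* and *Per2* include the -0.34 of *Nr1d1*.

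The CRY genes encode the cryptochromes, the strongest inhibitors of the BMAL1 and CLOCK pair. *Cry1* (Gene ID 12952, chr10:85131700-85185054) ran from 14.1 through 14.9 to 15.6 CPM in Control and from 11.95 through 13.4 to 16.2 CPM in *FRAIL1* muscles. Of the *FRAIL1* muscles, 5 were below every Control muscle and muscle 5 was above every one. The log2 fold change was -0.12 (SE 0.0710, 95% interval -0.27 to 0.035, edgeR adjusted p = 0.304), and -0.17 without *FRAIL1* muscle 5 (edgeR adjusted p = 0.117), which did not pass. *Cry2* (Gene ID 12953, chr2:92403646-92434085) ran from 19.8 through 26.1 to 34.4 CPM in Control and from 25.02 through 29.5 to 33.9 CPM in *FRAIL1* muscles. Muscle 1 was the lowest and muscle 6 the highest of both groups, and the log2 fold change was 0.13 (SE 0.109, 95% interval -0.097 to 0.37, edgeR adjusted p = 0.442). *Cry2* shares 4.67% of its exon length with the overlapping gene D930015M05Rik.

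The arms were compared as a mean of log2 CPM over their genes in each muscle, given here as a description. The positive arm averaged 3.34 ± 0.178 in Control and 3.25 ± 0.141 in *FRAIL1* muscles (SD, n = 6 each), a difference of -0.09. The negative arm averaged 4.89 ± 0.129 and 4.82 ± 0.160, a difference of -0.07. Both arms therefore differed by less than 1 SD, and in the same direction. The positive minus the negative arm was -1.55 ± 0.242 in Control and -1.57 ± 0.244 in *FRAIL1* muscles, a difference of -0.02 that is small beside the spread between muscles. Its sign is not set: it was -0.10 without Control muscle 6 and 0.07 without *FRAIL1* muscle 6, and 0.17 with *Arntl* or -0.22 with *Npas2* left out of the positive arm. Within the negative arm, the REV-ERB genes averaged 7.27 ± 0.125 and 7.001 ± 0.229 (difference -0.27), the PER genes 3.69 ± 0.211 and 3.69 ± 0.232 (difference 0.0037) and the CRY genes 4.31 ± 0.132 and 4.33 ± 0.103 (difference 0.014). The arm mean thus hides unlike members, as *Arntl* was lower while *Npas2* was not.

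**Figure D3:**
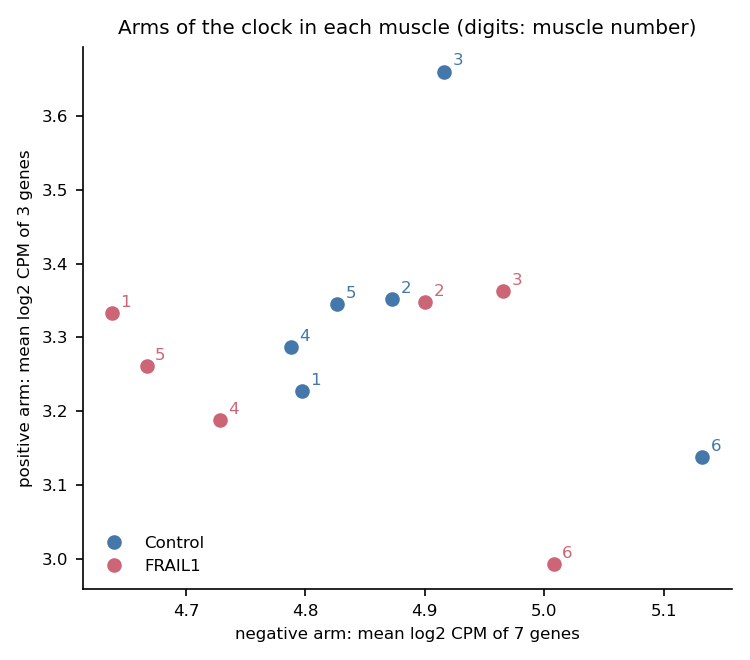
Each of the 12 muscles by its mean log2 CPM over the 7 genes of the negative arm (horizontal axis) and the 3 genes of the positive arm (vertical axis), blue for Control and red for FRAIL1, with the muscle number beside each point. The groups overlap on both axes, and both muscles numbered 6 combine a low positive with a high negative arm.

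Muscles of one group varied together in several clock genes. After the group means were removed, *Per2* and *Per3* had a correlation of log2 CPM of 0.83 over the 12 muscles (Spearman's rho 0.72), *Per2* and *Cry2* of 0.74 (rho 0.90) and *Per3* and *Cry2* of 0.74 (rho 0.66). These were among 45 pairs described, and the muscles share mice, libraries and TMM factors. Without the 2 muscles farthest from the median the 3 values were 0.57, 0.46 and 0.44, so part of each rested on 2 muscles. *Arntl* ran with *Clock* (0.60) and against *Cry2* (-0.57) and *Per3* (-0.55). *Npas2* ran against *Nr1d1* (-0.64, rho -0.80). *Dbp*, an E-box target that encodes a D-box activator and was singled out after its values were seen, ran with *Per2* (0.89, rho 0.78). Without the 2 muscles farthest from the median this value was 0.78. The level of *Dbp* was 38.7 ± 7.90 CPM in Control and 39.2 ± 8.59 CPM in *FRAIL1* muscles (edgeR adjusted p = 0.953).

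**Figure D4:**
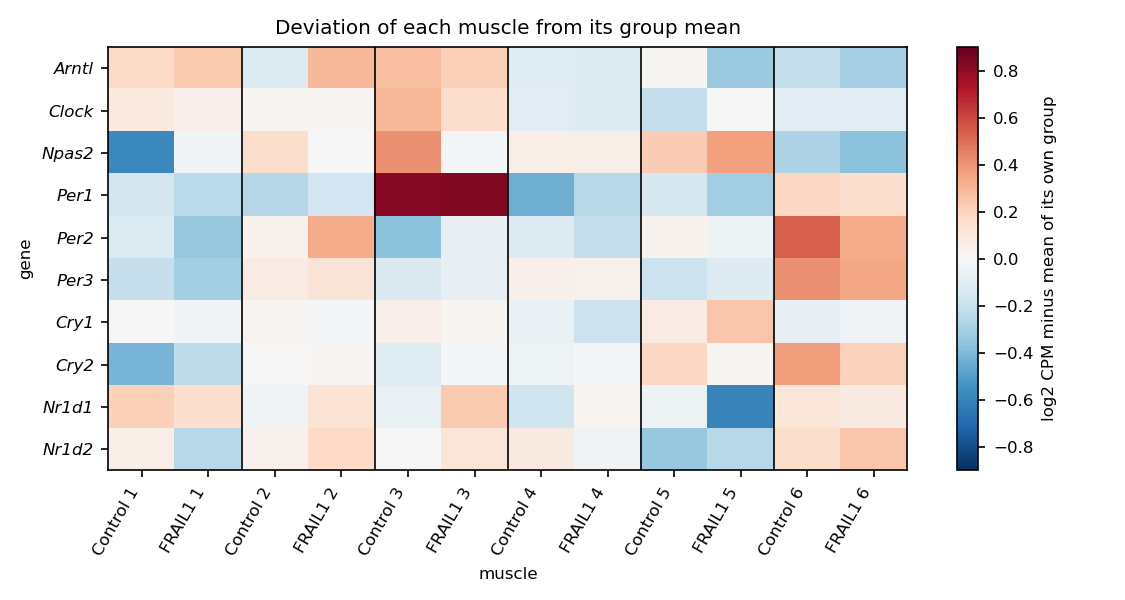
Heat map of the log2 CPM of each clock gene minus the mean of its own group (red above, blue below), for the 12 muscles ordered by number with Control and FRAIL1 side by side. *Per1* stands out in muscle 3 of both groups, and *Per2*, *Per3* and *Cry2* are high in muscle 6 of both groups.

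For *Arntl*, the genes with the most similar deviations among 13000 genes with a mean of at least 1 CPM were *Rap1gds1* (r = 0.91), *Mlec* (0.91), *Prdm2* (0.91), *Bap1* (0.90) and *Hbs1l* (0.90). The most opposite were *Fgfr1* (-0.91), *Mrpl41* (-0.91), *Zmat1* (-0.90), *Zfas1* (-0.88) and *Tspan4* (-0.88). For *Nr1d1* the most similar were *Hjv* (0.97), *Mettl22* (0.96), *Egflam* (0.96), *Atmin* (0.95) and *Pdrg1* (0.95), and the most opposite *Cul7* (-0.96), *Arf4* (-0.95), *Rbbp4* (-0.95), *Snx4* (-0.94) and *Marcks* (-0.93). None of these 20 belongs to the clock lists. They are extremes of 13000 values over 12 muscles, and for *Nr1d1* they rest in part on 2 muscles, *FRAIL1* muscle 5 being the farthest: without both, *Hjv* was at 0.88 and *Marcks* at -0.64.

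The wider pathway was described with 4 lists holding 55 genes, of which 54 were tested and *Fbxl21* was not. Of these, 2 fell past the threshold (3.70%) and 0 rose, beside 6.28% of all genes. The count depends on the test: DESeq2 called 13 of them, and 2154 genes of 15258 in all. Fold changes were below 0 in 43 pathway genes and above 0 in 11, while 7500 of all 15502 genes were below 0. The median log2 fold change of the pathway genes was -0.11, against 0.0096 over all genes. Groups did not overlap in 5 of the 54 pathway genes, against 4.88% of all genes. An unadjusted p under 0.05 was reached by 20 pathway genes (37.0%), against 27.7% of all genes.

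**Figure D5:**
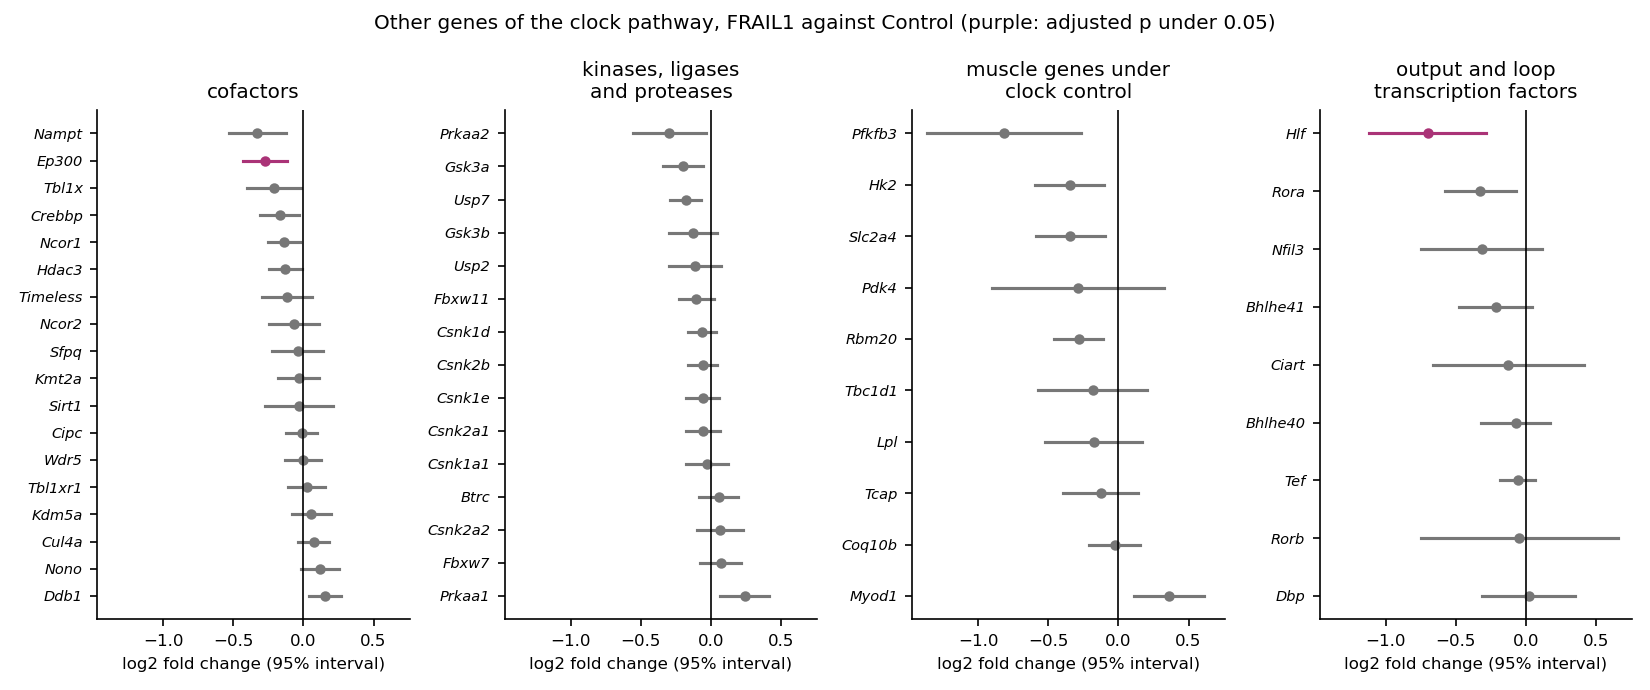
Log2 fold change of FRAIL1 over Control muscles for pathway genes tested, by list, with 95% intervals from edgeR's quasi-likelihood fit. Most points lie below 0, and only *Hlf* and *Ep300* passed the adjusted threshold.

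Among the 10 output and loop transcription factors, 1 fell, 0 rose, and the median log2 fold change was -0.17. *Hlf*, a D-box activator of the family of *Dbp*, ran from 6.89 through 8.53 to 11.2 CPM in Control and from 3.03 through 5.61 to 7.43 CPM in *FRAIL1* muscles. The groups overlapped only at their edges, and the log2 fold change was -0.70 (SE 0.194, edgeR adjusted p = 0.0477). *Rora*, which encodes the activator RORα that competes with the REV-ERBs, had a log2 fold change of -0.32 (edgeR adjusted p = 0.0978), and passed without *FRAIL1* 2 (edgeR adjusted p = 0.0485, against up to 0.190 over all alternatives). *Nfil3*, a D-box repressor, was at -0.31 (edgeR adjusted p = 0.325), and *Bhlhe41*, an E-box repressor, was at -0.22 (edgeR adjusted p = 0.267). Over the 24 alternative settings adjusted p of *Nfil3* ranged from 0.0188 to 0.619. *Nfil3* passed in 3 of them and *Bhlhe41* in 0.

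Of 18 cofactors, 1 fell and 0 rose, with a median of -0.04. *Ep300*, a histone acetyltransferase that serves as a coactivator of CLOCK and BMAL1, ran from 32.2 through 36.3 to 40.6 CPM in Control and from 25.9 through 30.9 to 34.2 CPM in *FRAIL1* muscles. The groups overlapped at their edges, with a log2 fold change of -0.27 (SE 0.0721, edgeR adjusted p = 0.0384). *Nampt*, the rate-limiting enzyme of NAD+ salvage and a clock output, was lower in every *FRAIL1* than in every Control muscle, at -0.33, and did not pass (edgeR adjusted p = 0.0543). It passed without *FRAIL1* 2, 3 or 5, the last at -0.25 (edgeR adjusted p = 0.0286, against up to 0.107 over all alternatives). *Ddb1*, a ubiquitin ligase adaptor, was higher in every *FRAIL1* muscle, at 0.15, without passing (edgeR adjusted p = 0.0891). *Tbl1x*, a corepressor subunit, was at -0.21 (edgeR adjusted p = 0.147) and *Crebbp*, the paralog of *Ep300*, at -0.17 (edgeR adjusted p = 0.113).

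Of 16 kinases, ligases and proteases of clock proteins, 0 rose and 0 fell past the threshold, with a median log2 fold change of -0.06. Among those reported here were the AMPK catalytic subunits, which can mark CRY for decay: *Prkaa2* was at -0.30 (edgeR adjusted p = 0.133) and *Prkaa1* at 0.24 (edgeR adjusted p = 0.0804). Over the 24 alternative settings adjusted p of *Prkaa2* ranged from 0.0022 to 0.259. *Prkaa2* passed in 4 of them and *Prkaa1* in 0. *Gsk3a*, a kinase of several clock proteins, was at -0.20 (edgeR adjusted p = 0.0734), and passed without *FRAIL1* 2 (edgeR adjusted p = 0.0436, against up to 0.155 over all alternatives). Of 10 muscle genes under clock control, 0 passed in either direction, 9 had a fold change below 0, and the median was -0.23. *Pfkfb3*, which encodes a regulator of glycolysis, was at 261 ± 38.4 CPM in Control and 149 ± 52.7 CPM in *FRAIL1* muscles without overlap (log2 fold change -0.82, edgeR adjusted p = 0.0700). Without *FRAIL1* muscle 5 it was at -0.64 and passed (edgeR adjusted p = 0.0103, against up to 0.125 over all alternatives). *Hk2*, the muscle hexokinase, was at -0.35 without overlap (edgeR adjusted p = 0.0751), and passed without *FRAIL1* 2, 3 or 5, the last at -0.25 (edgeR adjusted p = 0.0403, against up to 0.141 over all alternatives). *Slc2a4*, which encodes the glucose transporter GLUT4, was at -0.34 (edgeR adjusted p = 0.0806), and passed without *FRAIL1* 3 or 5, the latter at -0.24 (edgeR adjusted p = 0.0247, against up to 0.137 over all alternatives). *Myod1*, the myogenic regulator, was at 0.36 (edgeR adjusted p = 0.0725). Without *FRAIL1* muscle 5, 7 of the 54 pathway genes were called, beside 969 of all 15590 genes tested in that fit.

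The calls of *Hlf* and *Ep300* were as close to the threshold as that of *Arntl*: each was kept in 4 of the 12 fits that left out 1 muscle (without *FRAIL1* 2, 3 or 5 for both, *FRAIL1* 6 for *Hlf* and Control 5 for *Ep300*) and lost in the others, where edgeR adjusted p reached 0.0947 for *Hlf* (without *FRAIL1* 1) and 0.0882 for *Ep300* (without Control 1).

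Levels of several sets of cell type and fiber state markers differed between the groups. In whole muscle these levels do not tell a change in cell numbers from one in RNA per cell. The marker lists were chosen with earlier results of these data known. Over all genes tested 4.43% were called higher and 1.85% lower. Of 7 denervated fiber markers 6 were higher in *FRAIL1* muscles past the threshold. Their summed levels were 117 to 153 CPM in Control and 233 to 405 CPM in *FRAIL1* muscles. Of 6 satellite cell and regenerating fiber markers 4 were higher, with sums of 144 to 191 and 297 to 1518 CPM. The fibroblast markers, 0 of 6 called, summed to 920 to 1756 and 1865 to 4839 CPM, and the macrophage markers, 0 of 7 called, to 194 to 295 and 241 to 636 CPM. The fibroblast sum was mostly *Col3a1* and *Col1a1*, with log2 fold changes of 0.82 and 1.04. Of the other fibroblast markers, *Lum* was at 0.75, *Pdgfra* at 0.44, *Dcn* at 0.019 and *Pi16* at -0.14. Fiber markers were lower in sum, with overlapping ranges and 1 of 7 called (*Ckm*, -0.38, edgeR adjusted p = 0.0482). Fold changes were below 0 in 6 of the 7, including *Myh4*, the most abundant (-0.43, edgeR adjusted p = 0.0548), while *Myh1* was at 0.14. Endothelial markers, with 1 of 6 called (*Tek*, -0.41, edgeR adjusted p = 0.0186), summed to 396 to 467 and 319 to 416 CPM. Schwann cell markers, 0 of 6 called, summed to 61.1 to 115 and 47.9 to 80.9 CPM. Smooth muscle markers, 0 of 4 called, summed to 148 to 218 and 163 to 191 CPM, and lymphocyte markers, 0 of 4 tested, to 3.62 to 8.02 and 4.08 to 9.80 CPM. No marker tested was at 0 in every muscle. Mitochondrial genes took 10.6 ± 0.846% of counts in Control and 8.73 ± 1.35% in *FRAIL1* muscles. The part of these shifts in the levels of *Arntl*, *Hlf*, *Ep300* and the other clock genes was not tested.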

How the data were processed

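RNA-seq was performed on poly(A)+ RNA of 12 TA muscles, 6 per group. Per the labels and methods, the authors trimmed reads with Trimmomatic, mapped them to mm10 with STAR 2.7.8a, counted uniquely mapping reads per gene with featureCounts 2.0.1, and deposited whole-number counts without normalization. Of 27179 genes listed by Gene ID, 25275 were matched to a RefSeq GRCm38.p6 symbol, and the others held 0.280% of counts. Exon lengths were from GENCODE M21.

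Counts were filtered with filterByExpr (15502 genes), scaled by TMM, and tested in edgeR 4.0.16 (R 4.3.3) by glmQLFit with robust fitting and glmQLFTest, with Benjamini-Hochberg adjustment over all genes and a threshold of 0.05. The fit had no term for the mouse and treated both legs of a mouse as independent, since the labels do not say that a replicate number marks a mouse. Log2 CPM used a prior count of 2. Standard errors were the log2 fold change divided by the square root of F. Libraries of the same group differed by more than sampling noise (chi-square over degrees of freedom of at least 15.4), so none was a copy of another. Alternatives used limma 3.58.1 and DESeq2 1.42.0, and copies at 98% identity over 100 bases were searched with BLAST 2.17.0, which found only the overlaps of *Cry2* and *Nr1d1* with their neighbours. The code was tested on simulated data.

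The 10 members and all lists were chosen with earlier results of these data known. Named genes were the members, pathway genes past the threshold, at most 4 others per list with the largest absolute log2 fold change, and for *Arntl* and *Nr1d1* the 5 genes with the highest and the 5 with the lowest correlation. Alternatives for the named pathway genes were added after seeing the data. Some pathway genes that the rule would name are not reported here by name, though list counts include them.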

Additional observations from a re-analysis of the deposited data

Results flagged for a closer look

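A muscle far from the other 5 of its group was found in 4 of 22 groups of values examined with Dixon's test, where chance gives about 1 in 20. *Per1* was at 45.68 CPM in *FRAIL1* muscle 3, with the next muscle at 28.35 CPM. Control muscle 3 was similar, at 43.48 CPM with the next Control muscle at 28.01 CPM, but was not flagged. *Per2* was at 7.481 CPM in Control muscle 6, with the next at 5.266 CPM. *Nr1d1* was at 131.5 CPM in *FRAIL1* muscle 5, with the next at 203.3 CPM. *Nr1d2* was at 73.16 CPM in Control muscle 5, with the next at 92.87 CPM.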

How the results depend on the processing

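Over all genes, 974 calls became 2186 with the replicate block, 2154 with DESeq2, 2829 with DESeq2 and the block, 1836 with voom, 2305 with both muscles numbered 5 left out and the block, and 364 to 2110 with 1 muscle left out (lowest without *FRAIL1* 1, highest without *FRAIL1* 3). The count of clock genes called lower, 1 as reported, was 2 with the block, DESeq2, DESeq2 and the block, voom, and both muscles 5 left out with the block, 0 without a filter and with both muscles 5 left out, and 0 to 2 with 1 muscle left out, and the count called higher was 0 in all these settings. Pathway calls, 2 as reported, were 12 with the block, 4 with DESeq2 size factors, 5 with upper-quartile scaling, 1 without a filter, 13 with DESeq2, 14 with DESeq2 and the block, 10 with voom, 9 with both muscles 5 left out, 15 with this and the block, and 0 to 8 with 1 muscle left out. Beside these, the calls over all genes were 1005 with DESeq2 size factors and 1097 with upper-quartile scaling. Without a filter 758 of 21534 genes were called, and with both muscles 5 left out 871 of 15525. The cause of these differences between settings was not tested, and an unfiltered table holds more genes to adjust over. The sign of *Per3* changed to -0.0015 with DESeq2, -0.0088 with both muscles 5 left out and -0.0085 with this and the block, and with 1 muscle left out it ran from -0.073 to 0.10, *Per1* from -0.16 to 0.27 and *Per2* from -0.13 to 0.067. *Arntl* was past 0.05 in 13 of 24 alternatives and *Nr1d1* in 7 of 24, always with a lower level in *FRAIL1* muscles, and the other 8 clock genes in 0 of 24. For *Arntl* adjusted p ran from 8.4e-05 (DESeq2 with the block) to 0.0923 (both muscles 5 left out).

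Muscles of 1 number correlated in their deviations at 0.254, 0.162, 0.282, 0.263, 0.0547 and 0.185 for numbers 1 to 6, so the pairing was not taken as shown, although 10 of 12 muscles correlated best with their own number. Over the 10 clock genes alone the correlations were 0.474, 0.220, 0.778, 0.662, 0.505 and 0.948 (mean 0.598, against -0.101 between different numbers). With the block *Nr1d1* had an edgeR adjusted p of 0.0383, within 0.0033 to 0.159 over its alternatives, and *Myod1*, higher in *FRAIL1* muscles, of 0.0107, within 0.00051 to 0.165. The SE of *Per1* was 0.058 with the block against 0.248 without, and that of *Per2* 0.108 against 0.157, around fold changes of 0.058 and -0.055. Depth limits mainly *Npas2*, with 67 to 178 counts per muscle.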
